A study of Mus musculus with 6 samples.

Results

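The KDM5 enzymes are histone demethylases that remove methyl groups from lysine 4 of histone H3 (H3K4). Their genes were taken as the rows named *Kdm5a*, *Kdm5b* and *Kdm5c* in a gene expression table of neonatal mouse cardiomyocytes (CMs), which gave 3 of 20066 listed genes, all 3 of them protein coding. CMs of C57BL/6 mice at postnatal day 0 to 1 were kept for 96 h in medium with a cell-permeable form of α-ketoglutarate (αKG) or with dimethylsulfoxide (DMSO), its solvent, and total RNA was sequenced from 3 libraries per group. The genotype and age were shared by both groups, and the labels name no altered allele. The labels give an αKG concentration of 100 µM, whereas the study's methods name a different one for octyl-αKG, so the dose behind these libraries is uncertain. CMs were dissociated from whole neonatal hearts and kept in serum-containing medium, and the labels do not say which animals or cultures each library came from. The study's imaging methods count a single isolation from pooled neonatal hearts as a sample. The legend of its figure with the αKG RNA-seq takes n as independent experiments, without giving n for that panel. Neither statement names these libraries. The p-values therefore measure only the spread between these libraries, which may be technical.

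KDM5 enzymes belong to the Jumonji C (JmjC) family, which uses iron and αKG to oxidize methyl groups on lysine. They act on trimethylated H3K4 (H3K4me3), a mark found at the promoters of active genes, and work together with co-repressor complexes that contain histone deacetylases. KDM5A was first described as a partner of the retinoblastoma protein, KDM5B is abundant in embryonic tissues and in several cancers, and the gene of KDM5C lies on the X chromosome and escapes X inactivation. *Kdm5d* is the Y-linked homologue of *Kdm5c*. The study proposed that αKG raises the activity of KDM5, which relays its effects on chromatin, from experiments with an inhibitor, overexpression and knockdown. After inactivation of *Cpt1b*, a gene of fatty acid oxidation, it reported unchanged expression of *Kdm5a* to *Kdm5d*. Messenger RNA does not measure enzyme activity. The question here is how the messenger RNA of these genes compared between αKG-treated and control CMs.

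The part of the enzyme that binds iron is conserved in the whole family, and its coding sequence is shown because near-identical stretches decide whether reads can be assigned to 1 gene. Each line gives 75 bases of the spliced coding sequence across the junction of exons 11 and 12 (GRCm38, plus strand for all 4 genes), with the codons of the iron-binding histidine and glutamate in capitals.
Kdm5a: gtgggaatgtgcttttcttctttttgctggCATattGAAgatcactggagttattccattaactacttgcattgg
Kdm5b: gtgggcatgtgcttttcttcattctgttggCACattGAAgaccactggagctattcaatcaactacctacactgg
Kdm5c: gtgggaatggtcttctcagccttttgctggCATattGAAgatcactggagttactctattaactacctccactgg
Kdm5d: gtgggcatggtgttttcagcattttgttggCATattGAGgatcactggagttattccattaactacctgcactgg
These codons are numbers 483 and 485 in *Kdm5a*, 499 and 501 in *Kdm5b*, 514 and 516 in *Kdm5c*, and 513 and 515 in *Kdm5d*, counted from the start codon of the longest coding transcript. *Kdm5a* differed from *Kdm5b* at 12 of the 75 bases and from *Kdm5c* at 11, and *Kdm5b* differed from *Kdm5c* at 16. Over the aligned coding sequences, identity lay between 67.3% for *Kdm5a* and *Kdm5b* and 78.0% for *Kdm5c* and *Kdm5d*. The longest run shared by transcripts of any pair was 35 bases, between *Kdm5c* and *Kdm5d*, and no run of 75 bases was shared.

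The libraries held between 3725428 and 4429134 reads in genes, estimated from the spacing of low values, since the deposited values were normalized counts rounded to whole numbers. αKG replicate 3 stood apart: its log2 values correlated across genes at 0.977 to 0.980 with the DMSO libraries and at 0.962 and 0.963 with the other αKG libraries. All 12 CM markers tested were listed, and *Tnnt2*, cardiac troponin T, had 3064, 3038 and 3069 normalized counts in control CMs and 3681, 3209 and 2812 in αKG. The 12 CM markers summed to 76896 to 79535 in DMSO and 81449 to 112968 in αKG, largely through *Ttn*, titin (51569, 54216 and 53157 against 80306, 84136 and 55569; log2 fold change 0.45, limma adjusted p = 0.0730). Of these 12, 0 were called by limma or limma-voom and 7 had an unadjusted p under 0.05, beside 28.1% of all genes. All αKG libraries lay above the controls in 4 and below them in 2, beside 13.7% and 14.6% of all genes. Of the 8295 listed genes whose mean was 100 or more, 1156 lay above and 2231 below. Those below included the slow troponin I gene *Tnni1* (-0.39, limma adjusted p = 0.0926). Markers of other cell types moved with treatment. Of 10 endothelial markers, 7 were called lower by limma, beside 0.952% of all genes, and 4 were called by limma-voom. Their summed values were 2285 to 2369 in DMSO and 1564 to 1719 in αKG. The endothelial markers *Tek* (0.38) and *Flt1* (0.27) went the other way, with overlapping groups. Of 10 proliferation markers, 3 were called higher by limma, beside 2.83% of all genes, and 3 were called by limma-voom. Their sums were 3407 to 6087 and 7195 to 8115. Sums over 10 fibroblast markers were 3291 to 3490 in DMSO and 3380 to 7358 in αKG. Over 10 epicardial markers they were 505 to 569 and 515 to 1270. Log2 medians relative to the DMSO mean were 0.88, 0.83 and 0.04 for fibroblast markers in αKG replicates 1, 2 and 3. For epicardial markers they were 1.99, 1.89 and -0.79. Neither list held a call by limma or limma-voom, and 6 and 3 markers had an unadjusted p under 0.05. Smooth muscle and pericyte sums over 10 markers were 4306 to 4415 and 4613 to 5027, with 2 called higher by limma and 0 by limma-voom. Much of these sums was *Abcc9*, which was lower (2114, 2020 and 2047 against 1590, 1495 and 2060). Macrophage markers were near 0, with sums of 22 to 35 in DMSO and 24 to 41 in αKG, and 6 of their 10 genes were not listed. These values stand beside every result below, and their part in it was not tested. In RNA from whole cultures, fewer cells of a type and less RNA per cell cannot be told apart.

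Of the KDM5 genes, *Kdm5c* was lower in αKG-treated CMs, by 17.0%, and neither *Kdm5a* nor *Kdm5b* passed the test. *Kdm5c* (ENSMUSG00000025332, chromosome X, 152233020 to 152274535, GRCm38) encodes a demethylase of neurons and many other cells. It had 1032, 1042 and 1017 normalized counts in the control libraries (DMSO replicates 1 to 3) and 834, 831 and 903 in the αKG libraries. The groups did not overlap, and αKG replicate 3 lay closest to the controls. The mean fell from 1030 ± 12.6 to 856 ± 40.7 (SD, n = 3 each), which is a log2 fold change of -0.27 ± 0.06 (SE; 95% interval -0.41 to -0.13; limma adjusted p = 0.0494).

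This call lay just under the threshold of 0.05, and 0.952% of all listed genes were called lower by the same rule, beside 2.83% called higher and 3.78% in either direction. Among 837 genes whose mean lay within 1.3 times that of *Kdm5c*, 1.43% were called lower. An unadjusted p under 0.05 was found for 28.1% of all genes, against which such counts are read below. In all genes 14.6% had every αKG library below every DMSO library (13.7% above), and in the 837 genes of like level 25.8% did, so a lack of overlap is common at this level. The spread of *Kdm5c* over the DMSO libraries, 1.22% of the mean, was smaller than the counting error of 2.98% to 3.06% of each of them. The fitted error of 0.063 was smaller than the median of 0.073 over genes of like level, and 13.7% of them had a smaller one.

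The fold change of *Kdm5c* stayed between -0.31 and -0.25 in all 17 refits, whereas its call was lost in 12 of them, with limma adjusted p-values up to 0.255. Without αKG replicate 3, *Kdm5c* was called at -0.31 (limma adjusted p = 0.00204), in a fit that called 17.9% of all genes lower and 19.3% higher. Without αKG replicate 1 or αKG replicate 2, no gene in the table was called (limma, with 3324 and 3244 genes at an unadjusted p under 0.05), and *Kdm5c* had limma adjusted p-values of 0.230 and 0.255. Without DMSO replicate 1, 2 or 3 they were 0.177, 0.232 and 0.250.

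**Figure D1:**
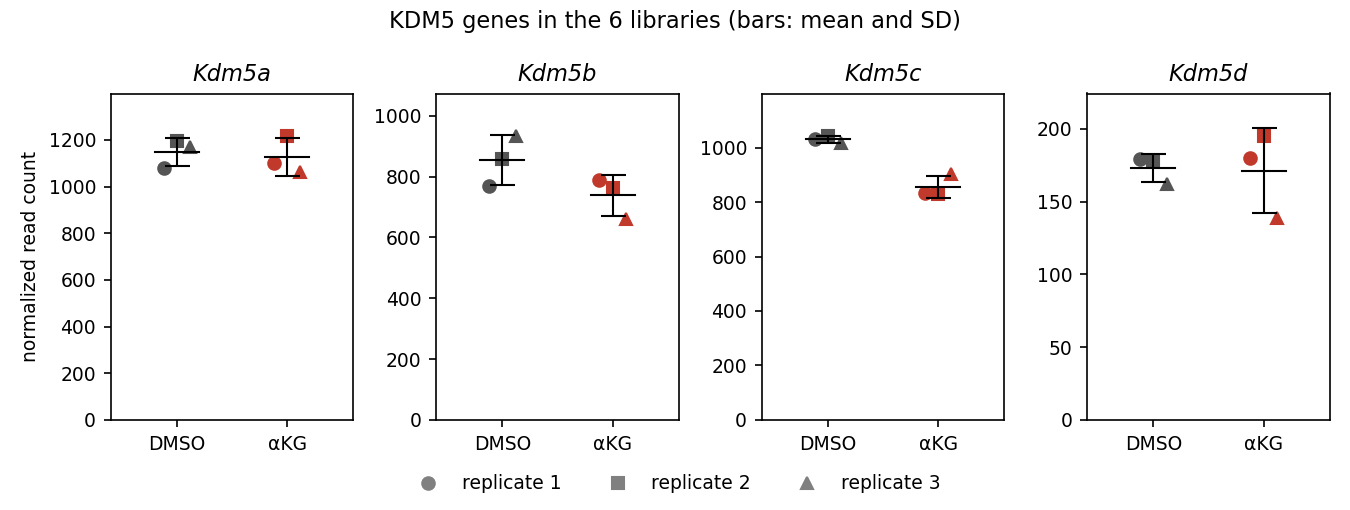
Normalized read counts (vertical axes, each from 0) of the KDM5 genes in the 3 DMSO and 3 αKG libraries. Points are libraries, with the replicate number given by the symbol, and bars are the mean and SD. The αKG libraries of *Kdm5c* sit between 831 and 903, all below the DMSO libraries, and the groups overlap for the other genes.

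*Kdm5b* (ENSMUSG00000042207, chromosome 1, 134560171 to 134635285), the member that the study altered in CMs, did not pass the test. Its normalized counts were 769, 858 and 933 in DMSO and 789, 764 and 662 in αKG. The groups overlapped, since DMSO replicate 1 lay below αKG replicate 1, and the lowest value was that of αKG replicate 3. The means were 853.3 ± 82.1 and 738.3 ± 67.3 (SD, n = 3 each), which is a log2 fold change of -0.21 ± 0.09 (SE; 95% interval -0.42 to 0.00; limma adjusted p = 0.180). Its DMSO libraries varied by 9.62% of the mean, against a counting error of 3.19% to 3.54% each, and 77.8% of 1082 genes of like level had a smaller fitted error.

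When log2 values were corrected per library for trends on GC content and exon length, *Kdm5b* stood at -0.40 and passed (limma adjusted p = 0.0362). That fit called 3.54% of all genes lower, and its median over all genes was -0.05 instead of 0.04. Without αKG replicate 3, where *Kdm5c* moved away from 0, *Kdm5b* moved towards it, to -0.13 (limma adjusted p = 0.247). A reduction larger than 0.42 on the log2 scale, or any rise beyond 0.00, lay outside the interval of the uncorrected fit.

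*Kdm5a* (ENSMUSG00000030180, chromosome 6, 120364124 to 120444574) had similar values in both groups. They were 1080, 1194 and 1168 in DMSO and 1101, 1216 and 1063 in αKG. αKG held both the highest and the lowest library, and the ranges overlapped almost entirely. The means were 1147 ± 59.7 and 1127 ± 79.7 (SD, n = 3 each), with a log2 fold change of -0.03 ± 0.07 (SE; 95% interval -0.19 to 0.13; limma adjusted p = 0.832). The sign depended on single libraries and became positive without DMSO replicate 2 or αKG replicate 3, at 0.0022 and 0.014. With the GC and length correction the value was -0.24 (limma adjusted p = 0.0654). The start of *Kdm5a* overlaps that of *Ccdc77* on the opposite strand over 251 exon bases, 1.77% of the exon length of *Kdm5a*, and reads there are uncertain, since whether strand was used in counting is not given in the sources used here.

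**Figure D2:**
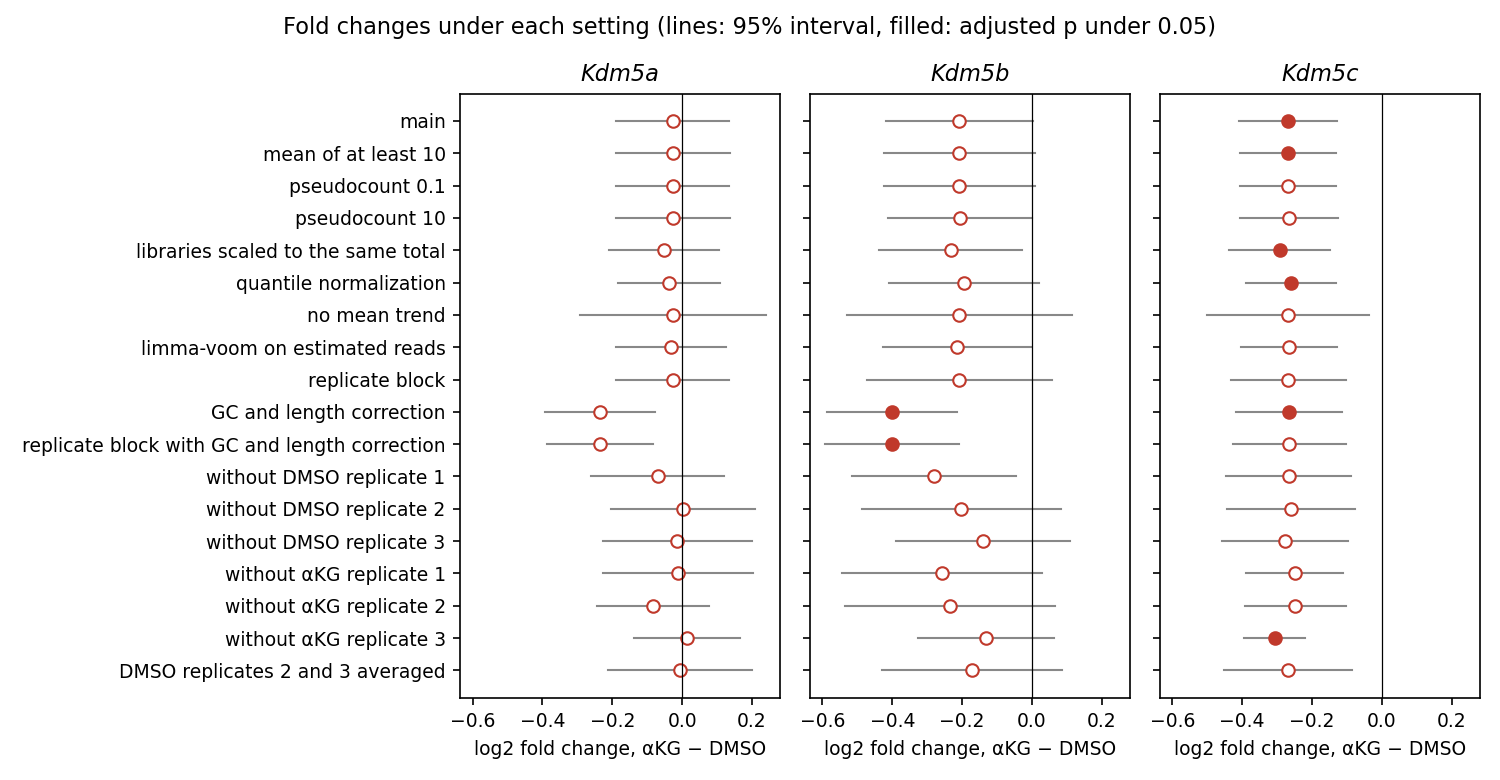
Log2 fold changes of *Kdm5a*, *Kdm5b* and *Kdm5c* between αKG and DMSO (horizontal axes) in the fit reported and in each refit. Lines are 95% intervals, and filled points have a limma adjusted p under 0.05. *Kdm5c* stays between -0.31 and -0.25, and *Kdm5a* and *Kdm5b* move to -0.24 and -0.40 with the GC and length correction.

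Whether the members responded differently was tested on their ratios within each library, which do not depend on the scaling of libraries. The log2 ratio of *Kdm5a* to *Kdm5c* was 0.07, 0.20 and 0.20 in DMSO and 0.40, 0.55 and 0.24 in αKG. Every αKG library had the higher ratio. The difference was 0.24 ± 0.10 (SE), with between-library differences from 0.04 to 0.48 over the 9 pairs of an αKG and a DMSO library. The p was 0.1 (two-sided exact permutation test), the smallest that 3 libraries against 3 allow, and 0.3 after Benjamini-Hochberg adjustment over the 3 pairs of genes. With the GC and length correction this difference shrank to 0.03, so an unequal response of *Kdm5a* and *Kdm5c* was not shown.

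The log2 ratio of *Kdm5a* to *Kdm5b* was 0.49, 0.48 and 0.32 in DMSO and 0.48, 0.67 and 0.68 in αKG. The groups overlapped in αKG replicate 1, and the difference was 0.18 ± 0.08 (SE; range of the 9 pairs -0.01 to 0.36; two-sided exact permutation p = 0.2, adjusted 0.3). The log2 ratio of *Kdm5b* to *Kdm5c* was -0.42, -0.28 and -0.12 in DMSO and -0.08, -0.12 and -0.45 in αKG. Both groups spanned nearly the same range, and the difference was 0.06 ± 0.14 (SE; range of the 9 pairs -0.32 to 0.34; two-sided exact permutation p = 0.7, adjusted 0.7). αKG replicate 3 held the lowest *Kdm5b* to *Kdm5c* ratio of all 6 libraries, whereas the other αKG libraries held the highest ones.

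**Figure D3:**
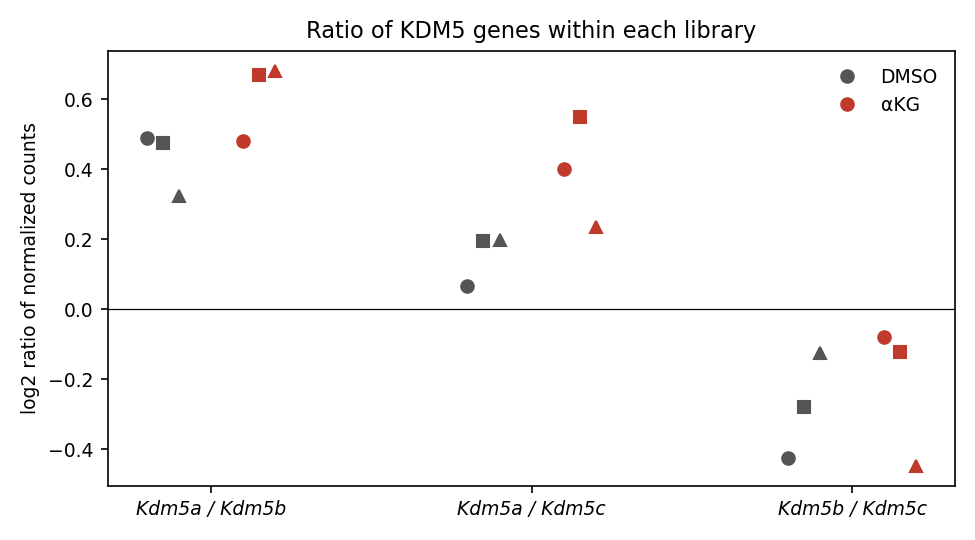
Log2 ratio of the normalized counts of each pair of KDM5 genes (vertical axis) in every library; circles, squares and triangles are replicates 1, 2 and 3. The *Kdm5a* to *Kdm5c* ratio is between 0.07 and 0.20 in DMSO and between 0.24 and 0.55 in αKG, and the other pairs overlap.

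Levels of different genes were compared only per length. Per kilobase of merged exon, *Kdm5c* had the highest level, with means of 144.9 ± 1.77 normalized counts in DMSO and 120.4 ± 5.73 in αKG (SD, n = 3 each). *Kdm5a* followed at 81.0 ± 4.22 and 79.6 ± 5.63, then *Kdm5b* at 51.5 ± 4.96 and 44.6 ± 4.06. *Kdm5d* was lowest at 11.4 ± 0.629 and 11.3 ± 1.91. The 4 genes kept this order in each of the 6 libraries, and no neighbours in it overlapped. Among 14250 protein-coding genes with a length, the level per kilobase exceeded that of 91.2% for *Kdm5c*, 78.4% for *Kdm5a*, 61.8% for *Kdm5b* and 28.8% for *Kdm5d*.

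Of the summed level per kilobase of these 4 genes, *Kdm5c* held 48.9% to 51.9% in DMSO and 44.6% to 50.6% in αKG. *Kdm5a* held 27.3% to 28.6% and 29.9% to 32.8%, and *Kdm5b* held 16.6% to 19.3% and 15.9% to 18.7%. The *Kdm5a* share was higher in each αKG library than in each DMSO library, and the other 2 shares overlapped. Divided by the length of the coding transcript named above in place of merged exons, *Kdm5b* (107.1 per kilobase) was level with *Kdm5a* (106.7) in DMSO replicate 3, and the order was otherwise the same. The summed normalized counts of *Kdm5a*, *Kdm5b* and *Kdm5c* were 2881, 3094 and 3118 in DMSO and 2724, 2811 and 2628 in αKG.

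**Figure D4:**
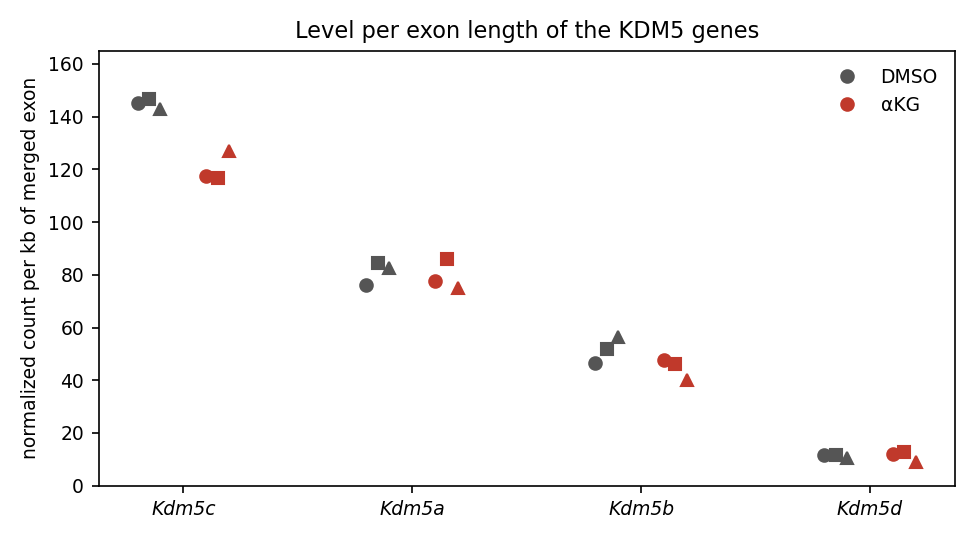
Normalized counts per kilobase of merged exon (vertical axis) of the KDM5 genes in each library; circles, squares and triangles are replicates 1, 2 and 3. *Kdm5c* lies highest in both groups and *Kdm5d* lowest.

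*Kdm5d* (ENSMUSG00000056673, chromosome Y) differed little between groups, with 179, 178 and 162 normalized counts in control CMs and 180, 195 and 139 in αKG. The αKG libraries enclosed the DMSO range, and the log2 fold change was -0.03 ± 0.14 (SE; 95% interval -0.34 to 0.29; limma adjusted p = 0.914), positive at 0.12 without αKG replicate 3 and at -0.24 with the GC and length correction (limma adjusted p = 0.206). Both Y-linked RNA and *Xist*, the RNA that coats the inactive X in female cells, were present in every library. *Xist* had 1965, 2103 and 2051 normalized counts in control CMs and 3138, 3254 and 2292 in αKG. It was higher in every αKG library (log2 fold change 0.49 ± 0.11, SE; limma adjusted p = 0.0494), a call lost with the GC and length correction (0.19, limma adjusted p = 0.0908) and without any 1 library other than αKG replicate 3 (0.40 to 0.51, limma adjusted p = 0.199 to 0.294).

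The summed normalized counts of the 4 listed Y-linked genes were 917, 938 and 922 in DMSO and 906, 1017 and 788 in αKG, which overlapped. With the GC and length correction, however, the median of these 4 genes moved from -0.03 to -0.55 and 3 of them were called lower, beside 3.54% of all genes. Of 11 listed X-linked genes that escape inactivation or regulate it, *Xist* was the only one called by limma, and 0 were called by limma-voom. An unadjusted p under 0.05 was found in 5, 0 of them lower, beside 28.1% of all genes. These were *Xist*, *Mid1* (0.63), *Ftx* (0.87), *Bgn* (0.36) and *Pbdc1* (0.30). Of the 11, 7 had a positive and 4 a negative log2 fold change, with a median of 0.15. With the GC and length correction the median was 7.4e-05 and 0 were called. Of other X-linked genes with a Y-linked homologue, *Zfx* (-0.27, limma adjusted p = 0.165) and *Usp9x* (0.13, 0.187) did not pass, and their Y homologues were not listed. Those with a listed Y homologue did not pass either. *Kdm6a*, an H3K27 demethylase, was at -0.19 (limma adjusted p = 0.204), the RNA helicase *Ddx3x* at -0.07 (0.543) and the translation factor *Eif2s3x* at -0.11 (0.559) on the log2 scale. Their Y homologues *Uty*, *Ddx3y* and *Eif2s3y* were at -0.12, -0.01 and -0.03 (limma adjusted p = 0.620, 0.958 and 0.825), and the sign of each turned positive without at least 1 library. With the GC and length correction they stood at -0.74, -0.55 and -0.55 and all 3 passed (limma adjusted p = 0.0169, 0.0370 and 0.0474), so the size and call of these values depended on this correction. Of 18 X-linked genes subject to inactivation, 0 were called by limma or limma-voom, 5 had an unadjusted p under 0.05 and 11 had a positive log2 fold change, with a median of 0.05. With the GC and length correction their median was -0.19 and 1 was called lower, while *Kdm5c* stood at -0.26 (limma adjusted p = 0.0491). The part of the share of female cells in the *Kdm5c* value was not tested.

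Other enzymes that remove H3K4 methylation were at lower values in αKG without passing the test: of 4 genes, 0 were called by limma or limma-voom and 3 had an unadjusted p under 0.05 (28.1% of all genes). *Kdm1a*, the flavin-dependent demethylase LSD1 that does not use αKG, had 539, 581 and 544 normalized counts in control CMs and 382, 416 and 475 in αKG, with no overlap (log2 fold change -0.39 ± 0.09, SE; limma adjusted p = 0.0507). Its relative *Kdm1b* had 350, 351 and 348 against 223, 241 and 315, also with no overlap (-0.44 ± 0.13, SE; limma adjusted p = 0.0733). *Kdm2b*, a JmjC protein of a Polycomb complex, had 450, 455 and 463 against 358, 355 and 427 (-0.27 ± 0.09, SE; limma adjusted p = 0.106). *Riox1* overlapped, with 47, 55 and 62 against 32, 37 and 68 (-0.32 ± 0.28, SE; limma adjusted p = 0.471).

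The median of these 4 genes was -0.36, beside -0.08 over the 8295 listed genes whose mean was 100 or more and 0.04 over all genes. *Kdm1a* and *Kdm1b* passed with the GC and length correction (-0.39 and -0.55, limma adjusted p = 0.0475 and 0.0453), beside 3.54% of all genes called lower. All 4 passed without αKG replicate 3, in the fit that called 17.9% of all genes lower. In αKG replicate 3 alone the median of the 4 stood at -0.12 relative to the DMSO mean, against -0.59 and -0.47 in αKG replicates 1 and 2.

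Of 14 listed JmjC demethylases that act on other residues, 0 were called by limma or limma-voom, and the median log2 fold change was -0.14. An unadjusted p under 0.05 was found in 5 of them, near the share of 28.1% over all genes, and 7 had every αKG library below every DMSO library, against 14.6% of all genes and about 25.8% at the level of *Kdm5c*. The lowest p-values belonged to the H3K9 and H3K36 demethylases *Kdm4b* (-0.31, limma adjusted p = 0.0527) and *Kdm4a* (-0.25, 0.0676), the H3K27 demethylase *Kdm6b* (-0.32, 0.0774) and *Kdm7a* (-0.31, 0.0850). *Kdm4b* had 543, 559 and 566 normalized counts in control CMs and 465, 418 and 461 in αKG. These groups lay apart, and the αKG replicate 3 value was within those of the other αKG libraries. Without αKG replicate 3, 6 of the 14 were called lower and 0 higher, beside 17.9% and 19.3% of all genes. With the GC and length correction *Kdm7a* alone was called (-0.62, limma adjusted p = 0.0271), and *Kdm4b* passed in the fit of genes with a mean of 10 or more (0.0461) and with libraries scaled to the same total (0.0452).

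The opposing enzymes are the H3K4 methyltransferases. Of 13 listed, 0 were called by limma or limma-voom, 3 had an unadjusted p under 0.05, 5 had a positive and 8 a negative log2 fold change, and the median was -0.05. The lowest p-values were those of *Smyd1*, a muscle methyltransferase (1446, 1350 and 1377 against 1036, 1066 and 1378; -0.27, limma adjusted p = 0.124), *Prdm9* (0.45, 0.174), *Smyd3* (-0.32, 0.175) and *Setd1b* (-0.19, 0.230). In *Smyd1* the αKG replicate 3 value equalled the controls while the other αKG libraries lay below. With αKG replicate 3 left out, 2 of the 13 were called higher and 4 lower, beside 19.3% and 17.9% of all genes. Of 12 listed subunits of the methyltransferase complexes 0 were called by limma or limma-voom and 2 had an unadjusted p under 0.05, with a median of -0.17. *Ash2l*, a core subunit (-0.24, limma adjusted p = 0.127), *Cxxc1*, which binds unmethylated CpG (-0.26, 0.133), *Ncoa6* (-0.18, 0.219) and *Hcfc1* (-0.17, 0.276) had the lowest p-values. Without αKG replicate 3, 7 of these 12 subunits were called lower and 0 higher, with a median of -0.27, in the fit that called 17.9% of all genes lower.

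**Figure D5:**
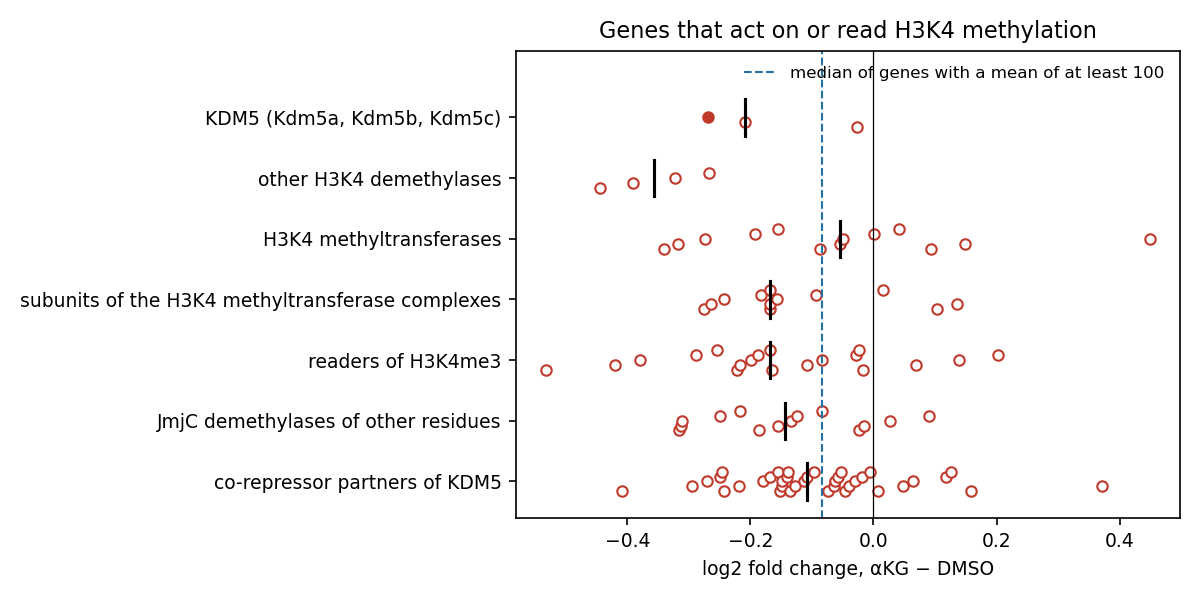
Log2 fold change between αKG and DMSO (horizontal axis) of single genes in each list; black bars are list medians, and the filled point, *Kdm5c*, has a limma adjusted p under 0.05. The dashed line is the median of -0.08 over genes whose mean was 100 or more; the 4 other H3K4 demethylases lie between -0.44 and -0.27.

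Proteins that recruit KDM5 or read its substrate were also examined. Of 37 listed co-repressor partners 0 were called by limma or limma-voom. Their median was -0.11, beside -0.08 over the 8295 listed genes whose mean was 100 or more. An unadjusted p under 0.05 was found in 8, a smaller share than the 28.1% of all genes. All αKG libraries lay below the controls in 8 and above them in 2, against 14.6% and 13.7% of all genes. Of the 8295 genes, 2231 lay below and 1156 above, a larger share below than in this list. *Sin3b*, a scaffold for histone deacetylases, had 608, 536 and 550 normalized counts in control CMs and 410, 374 and 498 in αKG (-0.41, limma adjusted p = 0.0645). The neuronal gene repressor *Rest* (-0.30, 0.0810), the SIN3 partner *Phf12* (-0.24, 0.0986) and the H3K9 methyltransferase *Ehmt2* (-0.22, 0.128) came next. With αKG replicate 3 left out, 11 of the 37 were called lower and 2 higher, beside 17.9% and 19.3% of all genes, and with the GC and length correction 2 were called lower, among them *Rest* (-0.39, limma adjusted p = 0.0471).

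Of 19 listed readers of H3K4me3 0 were called by limma or limma-voom, 5 had an unadjusted p under 0.05, near the 28.1% of all genes, and the median was -0.17. *Ing3*, a subunit of the NuA4 acetyltransferase complex, had 210, 210 and 213 against 130, 132 and 180 (-0.53, limma adjusted p = 0.0609), with no overlap, and passed with the GC and length correction (-0.71, limma adjusted p = 0.0390). *Taf1*, a TFIID subunit on the X chromosome, was at 0.20 (0.103). *Phf23* (-0.42, 0.129) and *Spin1* (-0.29, 0.147) overlapped between groups. Without αKG replicate 3, 10 of the 19 readers were called lower and 1 higher, beside 17.9% and 19.3% of all genes, and the list's median in αKG replicate 3 was -0.02 relative to the DMSO mean.

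The study probed 6 genes for binding of KDM5B, chosen there as CM maturation genes (*Tnni3*, *Mylk3*, *Myocd*) and housekeeping genes (*Dus1l*, *Snx19*, *Lsm6*). In neonatal CMs given αKG, it reported lower expression of these maturation genes and unaltered messenger RNA of these housekeeping genes. The housekeeping result came from an experiment that also included knockdown of *Kdm5b*, which these libraries do not hold. The study's RNA-seq methods, written for adult CMs, call genes at a P value under 0.05. Calls here need a limma adjusted p under 0.05, so the thresholds are unlike. In the present libraries 0 of the 6 were called by limma or limma-voom, with 2 at an unadjusted p under 0.05. *Mylk3*, cardiac myosin light chain kinase, had 1978, 2087 and 2109 normalized counts in control CMs and 1653, 1714 and 1854 in αKG, with no overlap (-0.24, limma adjusted p = 0.0561). It passed with the GC and length correction (-0.26, limma adjusted p = 0.0499), with quantile normalization (-0.31, 0.0392) and with libraries scaled to the same total (-0.27, 0.0463). *Dus1l*, a tRNA-modifying enzyme, had 200, 206 and 200 against 174, 159 and 178, with no overlap either and nearly the same log2 fold change (-0.25, limma adjusted p = 0.151). *Tnni3*, cardiac troponin I (-0.05, 0.639), *Snx19* (-0.05, 0.742), *Lsm6* (0.12, 0.680) and the transcriptional coactivator *Myocd* (0.04, 0.809) overlapped between groups. The sign of *Snx19*, *Lsm6* and *Myocd* turned when single libraries were left out, and *Myocd* was at -0.02 with quantile normalization.

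The genes next to the members were read for the region around them. The study's RNA-seq methods, written for adult CMs, leave out reads that fall in more than 1 gene. Of 7 neighbours 0 were called by limma or limma-voom, with 3 at an unadjusted p under 0.05. *Ccdc77*, head to head with *Kdm5a*, had 234, 188 and 216 normalized counts in control CMs and 273, 254 and 248 in αKG (0.28, limma adjusted p = 0.133), above the controls in every library, and *Il17ra* beyond the other end was at -0.02 (0.948). *Rabif*, 51397 bases before *Kdm5b*, had 111, 108 and 109 against 53, 56 and 102, a gap carried by αKG replicates 1 and 2 (-0.69, limma adjusted p = 0.102). Around *Kdm5c*, *Iqsec2* ends 7784 bases before it and was at -0.28 (0.219), and *Kantr* on the opposite strand, 20293 bases beyond, had 15, 15 and 12 against 25, 28 and 17 (0.68, limma adjusted p = 0.174). *B4galnt3* and *Syt2*, the remaining neighbours, had at most 3 normalized counts in any library, too few for a fold change.

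The genes most alike in profile were found by the root mean square difference of log2 values, centred per gene over the 6 libraries, among 8294 other genes whose mean was 100 or more. For *Kdm5c* these were *Esrra* (0.014), *Afap1l1* (0.017) and *Sos2* (0.019). *Afap1l1* had 968, 968 and 964 normalized counts in control CMs and 776, 794 and 835 in αKG and was called lower (-0.27, limma adjusted p = 0.0465), a call lost without any 1 library other than αKG replicate 3 (limma adjusted p = 0.170 to 0.255). This call was also lost with a pseudocount of 0.1 (limma adjusted p = 0.0563), limma-voom (0.0573) and the GC and length correction (0.0570). The same held for the replicate block (0.104), the fit without the mean trend (0.204) and DMSO replicates 2 and 3 averaged (0.210). For *Kdm5b* they were *Mvp* (0.034), *Zfp330* (0.039) and *Trim68* (0.040), and for *Kdm5a* they were *Mindy2* (0.015), *Ankib1* (0.016) and *Ubr3* (0.026). The members were not among each other's closest genes: *Kdm5a* and *Kdm5b* differed by 0.12, *Kdm5b* and *Kdm5c* by 0.15 and *Kdm5a* and *Kdm5c* by 0.16, and seen from *Kdm5c* the other 2 ranked 4033 and 4343. These ranks describe 6 shared libraries and carry no test.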

How the data were processed

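Total RNA behind 3 DMSO and 3 αKG libraries was prepared with a stranded kit. Per the study's methods and processing notes, the authors trimmed reads (Trimmomatic 0.39), aligned them to GRCm38 (STAR 2.7.10a), counted reads per gene (featureCounts 2.0.3) and normalized with DESeq2 1.30.1. Picard 2.27.1 is also named among the tools. The study's supplement describes Picard for removing duplicate reads in its chromatin sequencing. Its effect on the values used here was not tested. The deposited values are treated as a score, because the authors divided reads by a size factor and rounded to whole numbers; column totals differed by up to 2.41%. Use of strand in counting is not given in the sources used here. Each gene listed reached 2 in some library.

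The value of 1 read was estimated from the spacing of low values, and simulated libraries were recovered within 0.5% in 20 of 20 cases. No molecular identifiers are described, so PCR copies cannot be told from separate molecules and the errors given cover counting only.

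All libraries entered limma 3.58.1 (R 4.3.3) on log2(value + 1) with a mean trend, treatment as the only term, no filter and Benjamini-Hochberg adjustment over 20066 genes; calls were made at 0.05. The pseudocount understates changes of low genes. Tested on simulated data over 20066 genes, 177 of 200 changed genes were called, with 0 false calls. In the real data αKG replicate 3 differed from αKG replicates 1 and 2 by a chi-square of 10.8 and 9.85 per gene. Recovery with such a library in a group was not tested. Recovery of a log2 fold change as small as that of *Kdm5c* (-0.27) was not tested either. Ratios were tested by exact permutation (scipy 1.17.1). Exon lengths and sequences came from GENCODE M21 (GRCm38). Alternatives were a filter at a mean of 10, pseudocounts of 0.1 and 10, scaling, variance models, a replicate block, a GC and length correction, each library left out, DMSO replicates 2 and 3 averaged and an unadjusted threshold. DMSO replicates 2 and 3 differed by a chi-square of 1.02 per gene, close to what counting alone gives, against 1.43 and 1.93 for the other DMSO pairs. They were kept as separate samples, as labelled. *Mki67* stood at 2034 and 1601 in them, but a single gene cannot decide whether they came from separate cultures. With these 2 libraries averaged, 19 genes were called.

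The members and lists were chosen with earlier results of these data known. Named genes are the members, *Kdm5d*, the called genes of each list or otherwise up to 4 with the smallest p, X-linked genes with Y homologues, neighbouring genes, the 3 genes most alike to each member, the 6 genes probed for KDM5B and 3 markers; not all are printed.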

Additional observations from a re-analysis of the deposited data

How the results depend on the processing

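The direction of *Kdm5b*, *Kdm5c* and the ratios of *Kdm5a* to *Kdm5b* and *Kdm5c* was the same under every alternative run; the cause of the changes below was not tested. *Kdm5c* lost its call with pseudocounts of 0.1 (-0.27, limma adjusted p = 0.0589) and 10 (-0.27, 0.0508), without the mean trend (-0.27, 0.208), with limma-voom on estimated reads (-0.27, 0.0611), with DMSO replicates 2 and 3 averaged (-0.27, 0.214) and in each fit without 1 library other than αKG replicate 3 (-0.31 to -0.25 over all 6). *Kdm5b* passed with the GC and length correction (-0.40). Without 1 library, *Kdm5a* ranged from -0.083 to 0.014 and the difference in the *Kdm5b* to *Kdm5c* ratio from -0.014 to 0.18; with the GC and length correction the latter was -0.14.

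The same replicate numbers occur in both groups, and deviations of same-numbered libraries correlated at -0.035, 0.057 and 0.017 over all genes. This cannot decide whether same-numbered libraries shared a culture. The deviations were taken from group means that include αKG replicate 3, and genes of low level counted equally. With the replicate block 46 genes were called and *Kdm5c* was not (-0.27, limma adjusted p = 0.108); the *Kdm5a* to *Kdm5c* difference stayed at 0.24, where sign flips cannot go below p = 0.25 (exact). The block with the GC and length correction called 1747 genes, left *Kdm5c* at -0.26 (limma adjusted p = 0.0518) and *Kdm5b* at -0.40 (0.0325).

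The count of 759 genes became 346 with a pseudocount of 0.1, 27 without the mean trend, 362 with limma-voom, 1234 with the GC and length correction, 19 with DMSO replicates 2 and 3 averaged, 5648 without adjustment and 0 to 7466 without 1 library. With a filter at a mean of 10 it was 872 of 13409. The correction moved the split from 568 higher and 191 lower to 525 and 709, and scaling to the same total gave 607 and 308.

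Of 1116 values of 62 other named genes under the alternatives, 935 kept direction and call, 39 changed sign, 41 lost a call and 101 gained one; the latter include *Uty*, *Ddx3y*, *Eif2s3y*, *Kdm1a*, *Kdm1b*, *Kdm7a*, *Ing3*, *Rest*, *Mylk3* and *Sos2* with the GC and length correction. Under quantile normalization the signs turned for *Ankib1* (0.029), *Ddx3y* (0.031), *Eif2s3y* (0.0090), *Huwe1* (-0.0058), *Kdm5d* (0.00034), *Mindy2* (0.012), *Myocd* (-0.019) and *Tnnt2* (-0.059). *Huwe1* was at -0.061 with the GC and length correction, with or without the replicate block. With DMSO replicates 2 and 3 averaged, *Ankib1* (0.0078), *Ddx3y* (0.0076), *Mindy2* (0.014) and *Ubr3* (0.0089) turned. Without 1 library the ranges were -0.062 to 0.026 for *Ankib1*, -0.15 to 0.090 for *Ddx3y*, -0.068 to 0.0056 for *Eif2s3y*, -0.17 to 0.099 for *Il17ra*, -0.13 to 0.12 for *Kdm5d*, -0.055 to 0.25 for *Lsm6*, -0.055 to 0.021 for *Mindy2*, -0.056 to 0.12 for *Myocd*, -0.12 to 0.012 for *Snx19*, -0.025 to 0.17 for *Tnnt2*, -0.062 to 0.049 for *Ubr3* and -0.27 to 0.054 for *Uty*. Counting error alone gave the log2 fold changes of *Kdm5a*, *Kdm5b* and *Kdm5c* standard errors of 0.035, 0.042 and 0.039.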
